A study of Mus musculus with 15 samples.

Results

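The Kruppel-like factor (KLF) genes Klf2, Klf3, Klf4, Klf6, Klf7, Klf8, Klf9, Klf10, and Klf13, were followed across blood monocytes and the macrophage subsets of the mouse small intestine. These 9 genes were found by symbol among the 19456 genes of the deposited count table, and all 9 were among the 15802 genes that passed the filter on low counts. The list was drawn up with results of these data known, and Klf8 is in it because of its lower level in Tim-4+CD4+ than in Tim-4-CD4+ macrophages. That difference is therefore given as a description without a p-value, as are the other differences of Klf8 that share libraries with it.

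RNA sequencing libraries were made from cells sorted by flow cytometry from adult male wild-type C57BL/6 mice that carried no transgene or treatment. There were 3 libraries of Ly6Chi peripheral blood monocytes and 4 of each subset of small intestine macrophages. Macrophages without Tim-4 and CD4 are labelled Tim-4-CD4- and called double-negative here, those with CD4 alone are labelled Tim-4-CD4+ and called single-positive, and those with both are labelled Tim-4+CD4+ and called double-positive. Tim-4 is a receptor for apoptotic cells, and CD4 has been used as a maturation marker of gut macrophages. The cells of 3 mice went into each library, with the exception of monocyte replicate 2, for which 4 mice were used. The gut was digested with enzymes at body temperature before sorting and the blood was not, so that digestion and the step from blood to gut cannot be told apart.

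KLFs are transcription factors that bind GC-rich and CACCC-containing DNA through zinc fingers near the end of the protein. One branch of the family, which includes Klf2, Klf4, Klf6, and Klf7, mainly activates transcription. A second branch, which includes Klf3 and Klf8, represses it by recruiting the corepressor CtBP, and the branch with Klf9, Klf10, and Klf13 binds the Sin3 corepressor. In myeloid cells, Klf4 is known for driving monocyte differentiation and Klf2 for restraining inflammatory activation. Several members, Klf2, Klf4, and Klf6 among them, are also fast-response genes whose mRNA rises when cells are handled or stimulated.

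The sums of macrophage and monocyte markers separated the monocyte libraries from the macrophage libraries. The genes of Tim-4 and CD4, which define the subsets, were not in these lists. Levels are given in CPM, the reads of a gene scaled to library size. Summed over 8 macrophage markers, the level was 3378 to 3705 CPM in monocytes and 25749 to 33633 CPM in the macrophage libraries. All 8 genes were detected. Of them, Fcgr1 barely differed, with means of 279 CPM in monocytes and 268 to 300 CPM in the subsets. The 6 monocyte markers summed to 9121 to 11981 CPM in monocytes, 603 to 877 in double-negative, 109 to 217 in single-positive, and 49.4 to 82.2 in double-positive macrophages. The list of 18 immediate early and dissociation genes, such as Fos and Egr1, summed to 3258 to 3571 CPM in monocytes and 36104 to 53395 CPM in macrophages. Total counts on genes ran from 39388763 to 151510641 per library.

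The summed levels of several other marker lists moved with the populations. B and plasma cell markers summed to 8.46 to 10.5 CPM in monocytes and 239 to 428 CPM in macrophages, most of it Jchain (means of 0.174 CPM in monocytes and 279.9 to 297 CPM in the subsets), whereas Ms4a1 averaged 1.25 CPM or less. Endothelial markers summed to 11.9 to 21.04 CPM in monocytes, 115 to 149 CPM in double-negative, 179.7 to 225 CPM in single-positive, and 303 to 374 CPM in double-positive macrophages. Most of this was Pecam1, which leukocytes express too, and Tek and Emcn averaged 1.05 CPM or less. Mesenchymal markers summed to 1.41 to 2.20 CPM in monocytes and to 60.5 to 92.1, 74.1 to 95.7, and 100.7 to 141 CPM in the subsets in that order. Dendritic cell markers lay between 25.1 and 75.5 CPM in all libraries and did not move as a group. Flt3 averaged 29.6 CPM in monocytes and 8.65, 0.8285, and 0.572 CPM in the subsets. Clec9a, most of the sum in macrophages, averaged 3.29 CPM in monocytes and 29.2, 25.6, and 27.4 CPM in the subsets. Subset means were 9.61, 2.91, and 2.20 CPM for Itgae, 2.83, 2.61, and 2.62 CPM for Xcr1, and 2.24, 1.12, and 1.70 CPM for Zbtb46. Granulocyte markers, nearly all of them Csf3r, summed to 446 to 463 CPM in monocytes and 153 to 217 CPM in macrophages, and erythroid markers to 56.4 to 71.9 CPM and 3.39 to 13.7 CPM. T cell, epithelial, and neuron and glia markers each summed to 26.8 CPM or less in every library. The part of these cells in the levels given here was not tested.

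Klf8, a CtBP-binding repressor, is the member that was chosen for its change, so its rank by size among the 9 genes is not a result. It lies on the X chromosome (chrX:153237466-153396132, plus strand, GRCm38, ENSMUSG00000041649.13), and RefSeq places 2 start sites in it. Klf3, the repressor nearest to it in the family and itself known to repress Klf8, lies at chr5:64803388-64832901 on the plus strand. The windows from 250 bases before to 50 bases after these starts are given here from RefSeq (GRCm38.p6), as the promoters of the CtBP-binding pair, with CACCC and its reverse complement GGGTG in capitals. They lie at chrX:153237498-153237797, chrX:153359363-153359662, and chr5:64803271-64803570.
Klf8 first start: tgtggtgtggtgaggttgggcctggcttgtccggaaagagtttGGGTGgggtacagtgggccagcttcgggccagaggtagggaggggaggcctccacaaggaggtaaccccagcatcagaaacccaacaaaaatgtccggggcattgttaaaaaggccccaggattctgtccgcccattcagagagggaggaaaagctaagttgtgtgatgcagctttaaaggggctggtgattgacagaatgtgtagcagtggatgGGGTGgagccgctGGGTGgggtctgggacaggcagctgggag
Klf8 second start: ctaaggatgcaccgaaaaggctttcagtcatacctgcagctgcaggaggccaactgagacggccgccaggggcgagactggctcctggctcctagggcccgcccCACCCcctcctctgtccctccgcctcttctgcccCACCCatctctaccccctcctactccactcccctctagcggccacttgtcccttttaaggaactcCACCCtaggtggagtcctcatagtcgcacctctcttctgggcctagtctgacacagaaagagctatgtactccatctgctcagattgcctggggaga
Klf3 start: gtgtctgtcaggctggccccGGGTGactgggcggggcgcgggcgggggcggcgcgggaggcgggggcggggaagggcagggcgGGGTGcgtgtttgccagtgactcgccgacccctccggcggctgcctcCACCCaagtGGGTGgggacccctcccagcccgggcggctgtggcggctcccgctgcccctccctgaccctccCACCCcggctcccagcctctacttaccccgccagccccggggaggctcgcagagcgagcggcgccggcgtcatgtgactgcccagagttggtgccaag

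Each Klf8 window holds 3 matches, all GGGTG in the first and all CACCC in the second. The Klf3 window holds 5, of which 1 overlaps a GC box (GGGCGG or its reverse complement). Promoter windows were found for 8 of the 9 genes. Of their 9 windows 7 held at least 1 match, whereas the windows of Klf4 and Klf6 held none. Over all 32851 promoter windows of the same length, 57.5% held at least 1 match on either strand and 9.35% held 3 or more. A match describes the letters of the window and was not tested as a binding site.

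Klf8 mRNA was lower in each macrophage subset than in monocytes and nearly absent from double-positive macrophages. In monocytes its level was 2.64, 5.95, and 3.57 CPM in replicates 1 to 3. In double-negative macrophages it was 0.529, 0.402, 0.798, and 0.699 CPM in replicates 1 to 4. No macrophage library reached the lowest monocyte library. In single-positive macrophages the values were 0.458, 0.126, 0.269, and 0.169 CPM, and single-positive replicate 1 lay above double-negative replicate 2. In double-positive macrophages they were 0.0389, 0.0344, 0.0322, and 0.0166 CPM, from 4, 4, 2, and 1 reads, and every one lay below all 11 other libraries.

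Counting error alone set wide limits on the lowest of these levels. With the reads of each population summed, the level was 3.95 CPM in monocytes (exact Poisson 95% interval, 3.73 to 4.19; 1177 reads), 0.586 CPM in double-negative (0.485 to 0.703; 117 reads), 0.237 CPM in single-positive (0.187 to 0.297; 76 reads), and 0.0322 CPM in double-positive macrophages (0.0161 to 0.0576; 11 reads). The summed level in single-positive macrophages was thus 7.36 times that in double-positive macrophages (exact interval, 3.89 to 15.4), which is the difference that put Klf8 in the list. The summed level in double-negative was 18.2 times that in double-positive (9.81 to 37.5) and 2.47 times that in single-positive macrophages (1.84 to 3.35). These intervals cover counting error and not the spread between mice.

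**Figure D1:**
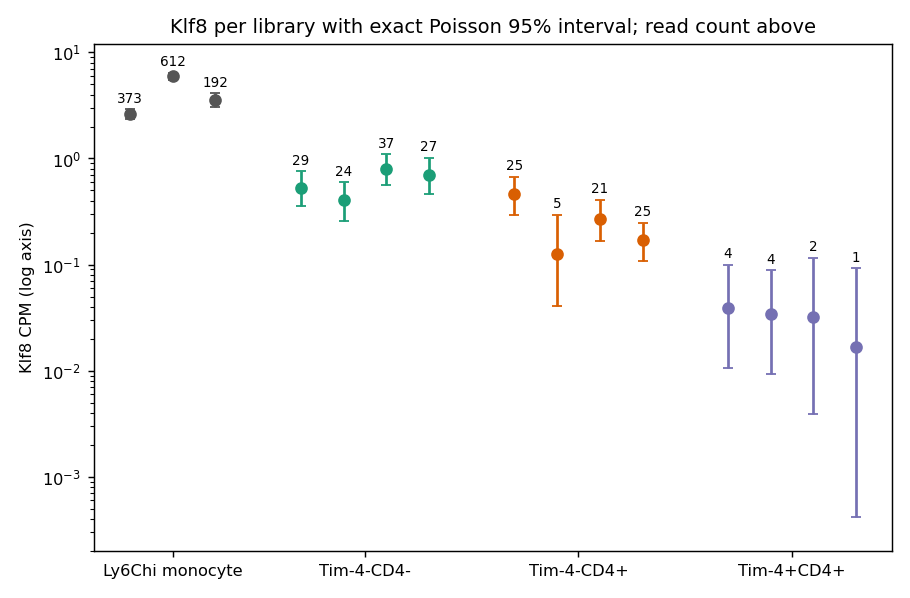
Klf8 level per library in CPM on a log axis, with the exact Poisson 95% interval as bars and the read count above each point, by population. The 4 Tim-4+CD4+ libraries hold 1 to 4 reads each and lie below every other library.

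The fit across all genes gave the same order. Against monocytes, Klf8 fell by 2.74 on the log2 scale in double-negative macrophages (SE 0.40, edgeR adjusted p = 1.27e-05). This contrast shares no library with the one that chose Klf8, but its SE rests on a spread estimated from all 15 libraries. The call was kept in all 23 alternative analyses, the fit of only these populations included. The log2 difference from monocytes was -3.99 (SE 0.42) in single-positive and -6.93 (SE 0.50) in double-positive macrophages. Between subsets it was -1.24 (SE 0.39) for single-positive against double-negative, -4.18 (SE 0.48) for double-positive against double-negative, and -2.94 (SE 0.49) for double-positive against single-positive. Leaving out single-positive replicate 1 moved the first of these to -1.64, and all of them are descriptions. Klf8 entered the fit through its reads in the other populations. When double-positive and single-positive libraries were taken alone, it fell under the filter.

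Monocyte markers moved with Klf8. All 6 were lower on average in single-positive than in double-negative and again in double-positive macrophages. As a share of its monocyte mean, Klf8 stood at 14.97%, 6.30%, and 0.753% in double-negative, single-positive, and double-positive macrophages. The chemokine receptor Ccr2, which brings monocytes from marrow to blood, stood at 25.1%, 3.20%, and 0.319%, and the monocyte gene Plac8 at 3.42%, 0.496%, and 0.443%. Ly6c2 and Chil3 were at or under 0.158% in all 3 subsets. The part of the monocyte program in the Klf8 levels was not tested, and fewer cells with Klf8 and less Klf8 per cell cannot be told apart in bulk RNA.

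Klf3, the other CtBP-binding repressor, also fell from monocytes to macrophages while no difference between subsets passed the test. It stood at 342, 378, and 392 CPM in monocytes and at 196, 232, 200, and 211 CPM in double-negative macrophages. In single-positive macrophages it stood at 206, 206, 235, and 207 CPM, and in double-positive macrophages at 118, 198, 233, and 214 CPM. Every macrophage library lay below every monocyte library, and double-positive replicate 1 was lowest. The log2 difference from monocytes was -0.82 (SE 0.16) in double-negative, -0.80 (SE 0.16) in single-positive, and -0.96 (SE 0.16) in double-positive macrophages, with edgeR adjusted p of 0.000287, 0.000344, and 5.38e-05. Between double-positive and single-positive macrophages the difference was -0.16 (95% interval, -0.46 to 0.13). Klf3 shares 404 exonic bases with Gm20033 on the opposite strand, and how the count treated strand is not given in the sources used here.

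Klf6, an activator that responds early to injury and inflammatory stimuli, rose most. Its level was 343, 329, and 375 CPM in monocytes and 1846, 2392, 1824, and 2069 CPM in double-negative macrophages. It was 1731, 1669, 2081, and 1705 CPM in single-positive and 1014, 1486, 1930, and 1559 CPM in double-positive macrophages. Even the lowest macrophage library, double-positive replicate 1, lay above all monocyte libraries. Klf6 was 5.82-fold higher in double-negative than in monocytes (log2 difference 2.54, SE 0.18), 5.15-fold in single-positive (2.36, SE 0.18), and 4.29-fold in double-positive macrophages (2.10, SE 0.17), with edgeR adjusted p of 1.88e-09, 3.63e-09, and 1.29e-08. Klf6 lies at chr13:5861482-5870394 on the plus strand.

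Klf4, which drives monocyte differentiation, rose less. It stood at 197, 283, and 232 CPM in monocytes and at 404, 551, 401, and 454 CPM in double-negative macrophages. In single-positive macrophages it stood at 313, 375, 469, and 361 CPM, and in double-positive macrophages at 267, 275, 366, and 372 CPM. The first 2 of these double-positive values lay below monocyte replicate 2, whereas the other subsets did not overlap monocytes. The log2 difference from monocytes was 0.93 (SE 0.17, edgeR adjusted p = 0.000153) in double-negative, 0.68 (SE 0.17, edgeR adjusted p = 0.00203) in single-positive, and 0.43 (SE 0.17, edgeR adjusted p = 0.0308) in double-positive macrophages. The last of these calls was lost without monocyte replicate 1 (0.34), monocyte replicate 3 (0.44), double-positive replicate 3 (0.39), or double-positive replicate 4 (0.35).

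Klf7, an activator known from neuronal development, about doubled. Its level was 21.6, 31.5, and 30.1 CPM in monocytes, 64.9, 49.9, 57.7, and 54.0 CPM in double-negative, 69.3, 60.1, 46.9, and 68.3 CPM in single-positive, and 42.3, 68.0, 55.2, and 58.6 CPM in double-positive macrophages. All macrophage libraries lay above all monocyte libraries, and the subsets overlapped each other. The log2 differences from monocytes were 1.03 (SE 0.17), 1.14 (SE 0.17), and 1.02 (SE 0.17) in that order, with edgeR adjusted p of 6.65e-05, 2.05e-05, and 6.29e-05. Klf7 shares 3196 exonic bases with Gm26649 on the opposite strand.

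Klf2, the activator that restrains inflammatory activation, had the widest spread between macrophage libraries, relative to its level, of the abundant members and passed no test in the fit of all libraries. It stood at 584, 513, and 519 CPM in monocytes and at 521, 1049, 623, and 598 CPM in double-negative macrophages. In single-positive macrophages the levels were 467, 486, 1121, and 438 CPM, and in double-positive macrophages 653, 588, 980, and 735 CPM. One library in each subset stood high, and only the double-positive libraries all lay above the monocytes. Against monocytes the log2 difference was 0.37 (95% interval, -0.22 to 0.96) in double-negative, 0.22 (-0.37 to 0.81) in single-positive, and 0.46 (-0.14 to 1.05) in double-positive macrophages. The last of these passed the threshold when only double-positive macrophages and monocytes were fitted (0.48, edgeR adjusted p = 0.027) and when single-positive replicate 3 was left out (0.48, edgeR adjusted p = 0.0488). The second turned to -0.20 without that library.

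The Sin3-binding repressors Klf13 and Klf10 fell and Klf9 did not pass the test. Klf13, known for inducing Ccl5 in T cells, stood at 701, 980, and 851 CPM in monocytes. It stood at 234, 226, 201, and 198 CPM in double-negative, 184, 183, 199, and 201 CPM in single-positive, and 151, 177, 195, and 191 CPM in double-positive macrophages. All macrophage libraries lay far below the monocytes. The log2 differences from monocytes were -1.97 (SE 0.12), -2.14 (SE 0.12), and -2.24 (SE 0.12), with edgeR adjusted p of 2.2e-10, 6.63e-11, and 3.37e-11. Among subsets, all 4 double-positive libraries lay below all 4 double-negative libraries, and the difference of -0.27 (95% interval, -0.48 to -0.06) had an edgeR adjusted p of 0.0867.

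Klf10, a gene induced by TGF-beta, fell from monocytes to macrophages and was lower in single-positive than in double-negative macrophages. In monocytes it stood at 130, 148, and 174 CPM. In double-negative macrophages it stood at 47.9, 51.8, 38.7, and 42.7 CPM. It stood at 25.2, 27.7, 36.5, and 27.5 CPM in single-positive and at 26.995, 31.2, 41.6, and 31.5 CPM in double-positive macrophages. The single-positive libraries did not overlap the double-negative libraries, whereas double-positive replicate 3 did. The log2 differences from monocytes were -1.73 (SE 0.16), -2.37 (SE 0.16), and -2.20 (SE 0.16), with edgeR adjusted p of 4.58e-08, 8.69e-10, and 1.93e-09. Between the single-positive and double-negative subsets the difference was -0.63 (SE 0.15, edgeR adjusted p = 0.0096), and this call was kept in all 23 alternative analyses.

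Klf9, which glucocorticoids induce, was low throughout. It stood at 7.16, 18.3, and 9.22 CPM in monocytes, 9.56, 12.7, 10.9, and 10.5 CPM in double-negative, 10.1, 9.94, 12.9, and 10.1 CPM in single-positive, and 5.81, 9.02, 9.94, and 9.85 CPM in double-positive macrophages. The populations overlapped, apart from double-positive and single-positive macrophages, and monocyte replicate 2 was highest of all. Those 2 subsets all but met, at 9.936 CPM in the highest double-positive and 9.938 CPM in the lowest single-positive library (edgeR adjusted p = 0.557). Its log2 difference from monocytes was -0.08 (95% interval, -0.58 to 0.42), -0.10 (-0.60 to 0.40), and -0.42 (-0.91 to 0.08) in the 3 subsets. Without monocyte replicate 2 all 3 turned positive, at 0.44, 0.43, and 0.11. Without monocyte replicate 1 the difference in double-positive macrophages was -0.65 and passed the threshold.

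**Figure D2:**
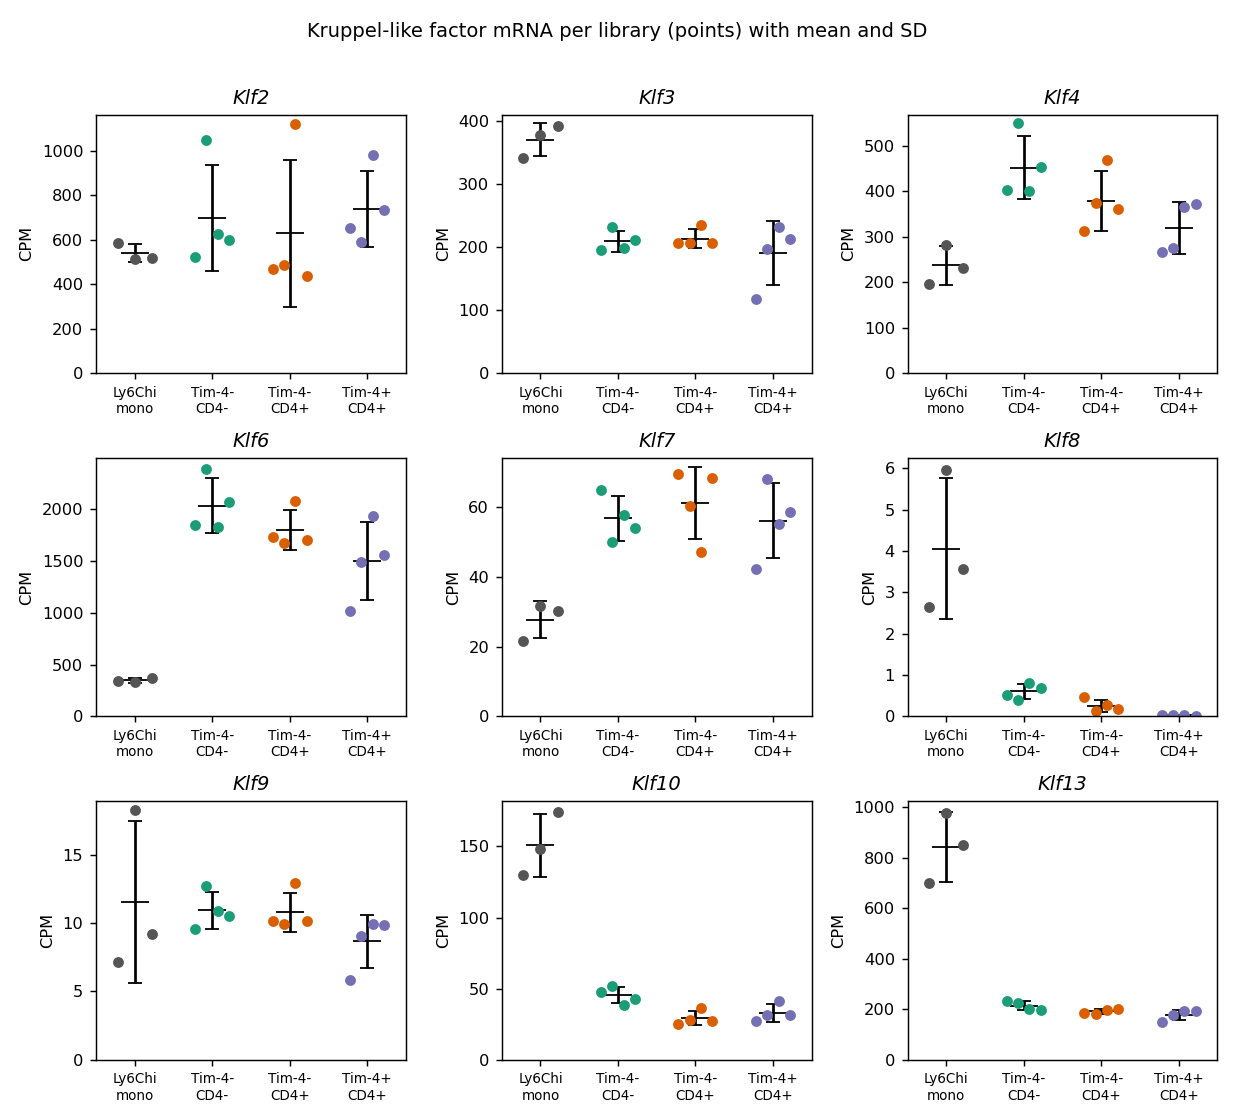
Level of each of the 9 genes in CPM per library (points) by population, with the mean as a horizontal line and the SD as bars, on linear axes from 0 that differ between genes. Klf6 in macrophages lies at 1014 CPM or more against 375 CPM or less in monocytes, while Klf8, Klf10, and Klf13 are highest in monocytes.

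Of the 8 genes other than Klf8, 6 passed the test against monocytes in each subset, 3 higher (Klf4, Klf6, and Klf7) and 3 lower (Klf3, Klf10, and Klf13). Klf8 was called lower in double-negative macrophages, the comparison that shares no library with the one that chose it, which made 7 of 9 there. The list itself was drawn up with results of these data known. These comparisons share the monocyte libraries. Of all genes tested, 65.4% were called in double-negative, 69.8% in single-positive, and 70.9% in double-positive macrophages, so that 6 of 8 is a share near that of the whole table. By direction, 37.3%, 39.1%, and 39.5% of all genes were called higher and 28.1%, 30.7%, and 31.3% lower in these comparisons. The median log2 difference of the 9 genes, Klf8 included, was -0.08, -0.10, and -0.42, beside 0.08, 0.11, and 0.10 over all genes. In size alone the median was 1.03, 1.14, and 1.02, beside 0.75, 0.86, and 0.89 over all genes.

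The immediate early list moved with the same contrast. In each subset 17 of its 18 genes were higher than in monocytes, all but the chaperone Hspa8, with a median log2 difference of 4.55, 4.42, and 4.24. Over all genes, 37.3%, 39.1%, and 39.5% were called higher. Of the 3 members named as fast-response genes, Klf4 and Klf6 were called higher in each subset and Klf2 in none (log2 differences of 0.37, 0.22, and 0.46, edgeR adjusted p of 0.289, 0.524, and 0.187). The part of tissue digestion in their levels was not tested.

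Between macrophage subsets the differences were small apart from Klf8. Klf8 is left out of the counts here, since these comparisons share libraries with the one that chose it. In single-positive against double-negative macrophages 1 of the 8 other genes was called (Klf10, lower), where 10.1% of all genes were called and 5.53% were called lower. In double-positive against double-negative macrophages 3 of 8 were called, all lower (Klf4, Klf6, and Klf10), where 23.1% of all genes were called and 11.9% were called lower. In double-positive against single-positive macrophages none of the 8 was called by edgeR or by DESeq2, nor did any pass 0.05 in edgeR without the adjustment, where 3.41% of all genes were called and 1.34% called lower. The median log2 difference of the 9 genes, Klf8 included, was -0.17, -0.34, and -0.16 in these comparisons, beside 0.00 over all genes in each.

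The lower levels of Klf4, Klf6, and Klf10 in double-positive than in double-negative macrophages lay close to the threshold. The log2 difference was -0.50 (SE 0.15, edgeR adjusted p = 0.0273) for Klf4, -0.44 (SE 0.15, edgeR adjusted p = 0.0439) for Klf6, and -0.46 (SE 0.15, edgeR adjusted p = 0.0286) for Klf10. The Klf4 levels did not overlap between these subsets, whereas those of Klf6 and Klf10 did. None of the 3 was called without double-negative replicate 2, double-positive replicate 1, or double-positive replicate 2. Without double-positive replicate 1 the differences were -0.42, -0.29, and -0.38, and without double-negative replicate 2 they were -0.38, -0.35, and -0.39. Of the 3, Klf10 alone was called without double-negative replicate 4 and Klf4 alone without double-positive replicate 4. Klf10 also lost its call without double-negative replicate 1. The Klf6 call was lost in 13 of the 23 alternatives, with adjusted p between 0.00834 and 0.135 over all of them.

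**Figure D3:**
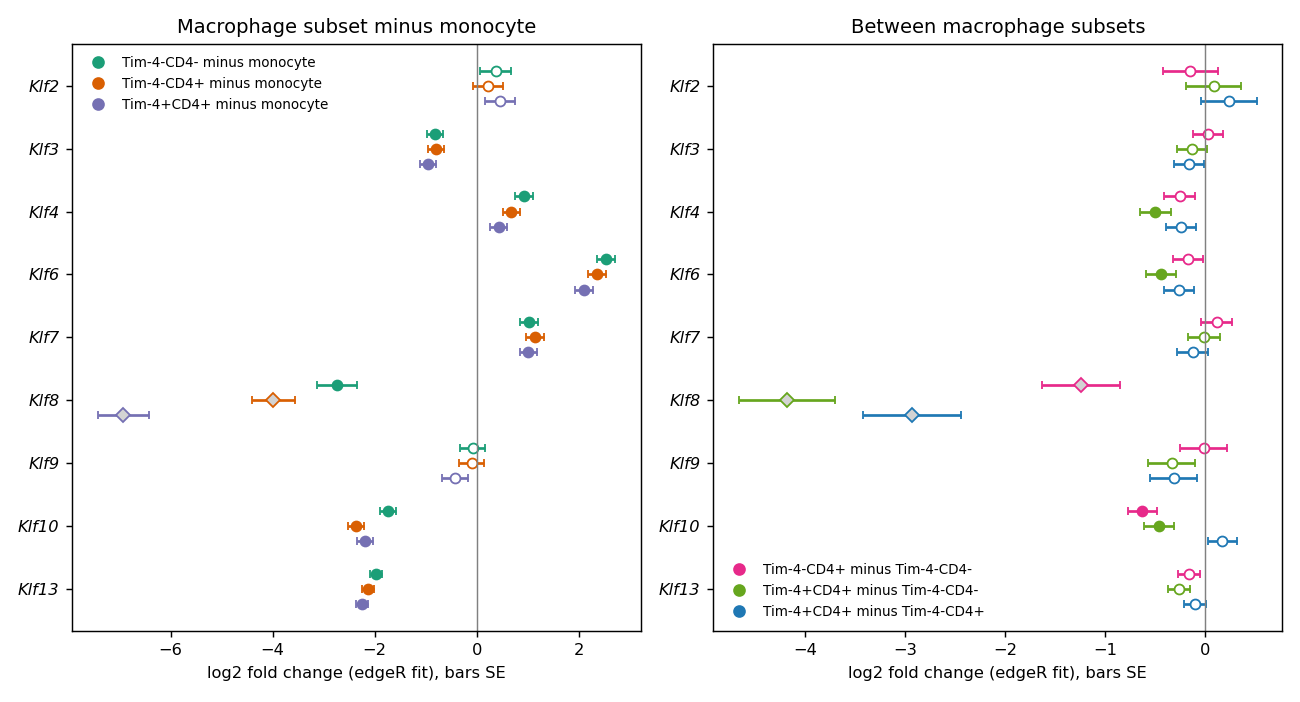
Log2 fold change from the edgeR fit (points) with its SE (bars) for each gene, for macrophage subsets against monocytes at left and between subsets at right, where filled circles passed an adjusted p of 0.05, open circles did not, and diamonds are differences of Klf8 given without a test. The Klf8 difference at -2.94, of double-positive (Tim-4+CD4+) minus single-positive (Tim-4-CD4+) macrophages, is the one that chose the gene.

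Immediate early genes also differed between subsets. Of the 18, 4 were lower in single-positive and 7 in double-positive than in double-negative macrophages, among them Egr1 (-0.65), Nr4a1 (-0.80), and Socs3 (-0.91) in the second comparison, and none was called between double-positive and single-positive macrophages. Over all genes, 5.53% and 11.9% were called lower in single-positive and double-positive than in double-negative macrophages, and 3.41% were called between the CD4+ subsets. The sum of these 18 genes was 44077 to 53395 CPM in double-negative, 36755 to 53090 in single-positive, and 36104 to 43305 in double-positive macrophages. Their part in the lower Klf4, Klf6, and Klf10 was not tested.

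Within each subset, several members were highest in the same library. The library with the highest immediate early sum, replicate 2 of double-negative and replicate 3 of both other subsets, was in each of the 3 subsets the library with the most Klf2. In each subset 6 of the 9 genes were highest in that library. In double-negative and single-positive macrophages these were Klf2, Klf3, Klf4, Klf6, Klf9, and Klf10. In double-positive macrophages they were the same apart from Klf13 in the place of Klf4. Replicate 1 of double-positive macrophages, the macrophage library farthest from the mean of its subset over all genes, was lowest of its subset for 7 of the 9 genes, Klf2 and Klf8 being the exceptions. How many of all genes were highest or lowest in these libraries was not counted. The counts for the 9 genes are therefore descriptions and show no trait particular to them.

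**Figure D4:**
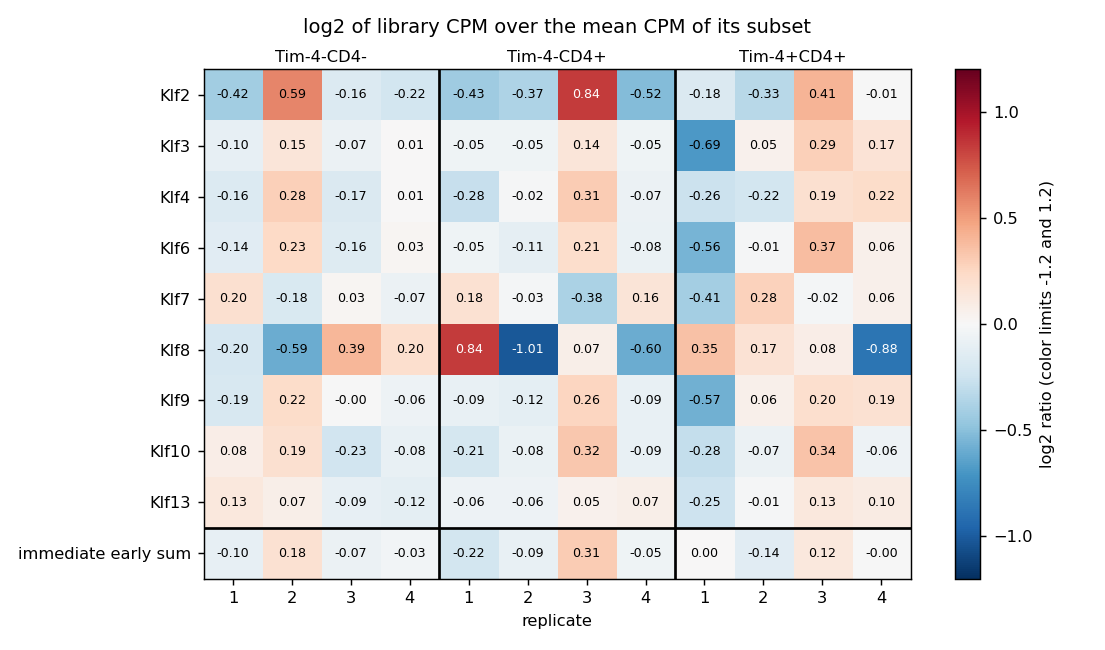
Log2 ratio of each library to the mean CPM of its own subset, for the 9 genes and for the sum of 18 immediate early genes (bottom line), in the 12 macrophage libraries. Klf2 varies most among the abundant members, from -0.52 to 0.84 in Tim-4-CD4+ macrophages, and Tim-4+CD4+ replicate 1 is low for Klf3 (-0.69), Klf6 (-0.56), and Klf9 (-0.57).

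Levels of different genes were compared per exon length, as RPKM, which is CPM per kilobase of exon. Klf2 and Klf6 made up most of the KLF mRNA in macrophages. In monocytes Klf2 gave 45.9% ± 4.62 (SD, n = 3) of the RPKM summed over the 9 genes, followed by Klf13 with 17.6% ± 2.43, Klf6 with 12.5% ± 0.956, and Klf4 with 12.2% ± 1.88. In double-negative macrophages Klf6 led with 44.2% ± 3.17 (SD, n = 4), before Klf2 with 35.1% ± 4.71 and Klf4 with 14.1% ± 0.712. The ranges of Klf6 (39.9 to 46.7%) and Klf2 (31.2 to 41.6%) overlapped, and in double-negative replicate 2 Klf2 was ahead. In single-positive macrophages Klf6 gave 44.9% ± 5.70 and Klf2 34.8% ± 7.99, and their ranges overlapped too. In double-positive macrophages Klf2 gave 44.3% ± 4.28 and Klf6 37.6% ± 4.01, ranges that overlap as well.

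The share of Klf13 was 2.76% ± 0.519 in double-negative, 2.82% ± 0.551 in single-positive, and 2.67% ± 0.299 in double-positive macrophages. Klf8 was the lowest member in every population, with 0.121% ± 0.0480 in monocytes and 0.000685% ± 0.000310 in double-positive macrophages. The summed level was 637 ± 17.6 RPKM in monocytes, 1057 ± 210 in double-negative, 935 ± 243 in single-positive, and 903 ± 191 in double-positive macrophages. All macrophage libraries, at 716 RPKM or more, lay above all monocyte libraries, at 654 or less.

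**Figure D5:**
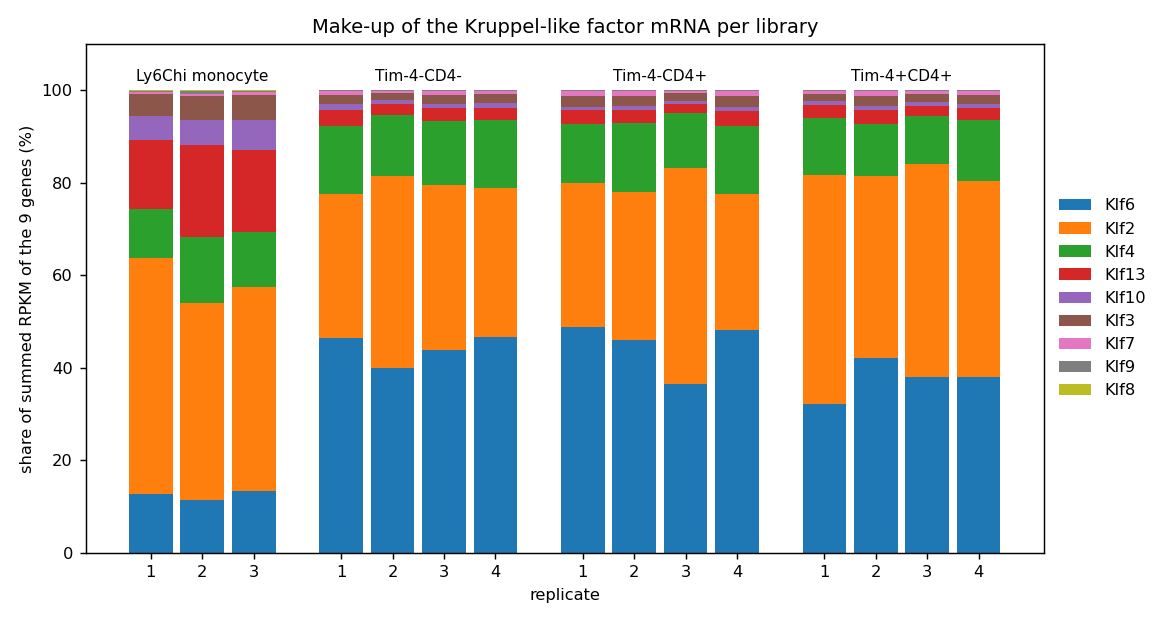
Share of each gene in the RPKM summed over the 9 genes, in percent, as a stacked bar per library and grouped by population. Klf13 and Klf10 take up visible bands in monocytes, while Klf6 takes 32.3 to 48.7% in macrophages against 11.5 to 13.4% in monocytes.

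The genes whose log2 CPM followed each member most closely over the 12 macrophage libraries are given as a description, since the libraries come from 3 subsets and differ in depth. For Klf8 these were Gm44135, Serpinf1, and Mfsd6, each with a Pearson r of 0.97. For Klf4 they were Stim2, Mcl1, and the immediate early phosphatase Dusp1 (r of 0.94 for each), and for Klf10 Gm9949, Hbegf, and Cfap43 (0.96, 0.96, and 0.94). For Klf3 they were Crkl, Wac, and Sec24a (0.99 for each), and for Klf6 Znrf2, Brd3, and Sec24b (0.98, 0.97, and 0.97). For Klf2 they were Pias4, Trim8, and Rxrb (0.97, 0.95, and 0.94). For Klf7, Klf9, and Klf13 the closest genes were Rictor (0.95), Smad2 (0.96), and Ube4b (0.96).

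Of the other Kruppel-like factors, 6 of 9 were in the table and 5 were tested. None was called between macrophage subsets, where 3.41 to 23.1% of all genes were called. Klf11 was the highest of them, with a mean of 34.4 ± 11.5 CPM (SD, n = 3) in monocytes and subset means of 32.9 to 33.4 CPM. Klf1, Klf5, and Klf15 averaged higher in every subset than in monocytes, where they had 1, 1, and 0 reads in all. Their mean in macrophages was at most 0.427 CPM. They passed the filter only through their reads in macrophages, which fixed the direction, so these differences are descriptions. Klf16 was called higher in double-negative macrophages than in monocytes (log2 difference 0.48, SE 0.17, edgeR adjusted p = 0.0184). Klf12, which also binds CtBP, was not tested, with at most 8 reads in any library. Klf1, known as an activator of Klf8, stood at 0.0856, 0.272, and 0.223 CPM on average in double-negative, single-positive, and double-positive macrophages.

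The related Sp factors bind the same GC-rich DNA. Sp1, Sp2, and Sp3 were lower in every subset than in monocytes, with log2 differences from -0.38 for Sp2 in double-negative to -1.29 for Sp3 in double-positive macrophages. In these comparisons 28.1 to 31.3% of all genes were called lower. Sp4 was called in none of them. Sp6 went the other way, with means of 0.0369 CPM in monocytes and 0.207, 0.225, and 0.0944 CPM in the subsets. It had at most 4 reads in a monocyte library, so its difference is a description. Of the 5 tested only Sp2 was called between subsets (double-positive against double-negative, -0.31, SE 0.08, edgeR adjusted p = 0.00945). Over all genes, 23.1% were called in that comparison.

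Of 9 corepressor genes, 1 was called in single-positive and 2 in double-positive against double-negative macrophages, all lower. Over all genes, 10.1% and 23.1% were called in these comparisons, so the counts are near the shares of the whole table. Ctbp2, which encodes a corepressor bound by Klf3 and Klf8, fell from 52.5 CPM on average in monocytes to 33.7 in double-negative, 25.7 in single-positive, and 21.6 in double-positive macrophages. Its log2 difference from double-negative macrophages was -0.40 (SE 0.11, edgeR adjusted p = 0.0275) in single-positive and -0.64 (SE 0.11, edgeR adjusted p = 0.000366) in double-positive macrophages. The deacetylase gene Hdac2 was lower in double-positive than in double-negative macrophages (-0.32, SE 0.09, edgeR adjusted p = 0.012). Ctbp1 and Sin3a were lower in all 3 subsets than in monocytes, and neither was called between subsets.

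Genes known as targets of Klf2 or Klf4 went both ways. Against monocytes, Cdkn1a was called higher in each subset and 4 of 8 were called lower, among them Thbd, Itgb7, and Cdkn1b. Over all genes, 37.3 to 39.5% were called higher and 28.1 to 31.3% lower in these comparisons. S1pr1, Nos3, and Arg1 also averaged higher in every subset than in monocytes, where they stood at 0.0917, 0.0746, and 0.0156 CPM. They entered the fit through their reads in macrophages, which fixed the direction, so these differences are descriptions. Between subsets only Thbd and Itgb7 were called. Over all genes, 10.1% were called in single-positive and 23.1% in double-positive against double-negative macrophages, and 3.41% between the CD4+ subsets. Itgb7, an integrin chain for homing to the gut, had means of 685 CPM in monocytes, 103 in double-negative, 36.9 in single-positive, and 14.4 in double-positive macrophages. Its log2 difference was -1.48 (SE 0.15) from double-negative to single-positive and -1.36 (SE 0.15) from there to double-positive macrophages, with edgeR adjusted p of 6.95e-06 and 2.74e-05. Thbd, the thrombin-binding receptor, differed by -1.32 (SE 0.22, edgeR adjusted p = 0.000731) and by -1.61 (SE 0.22, edgeR adjusted p = 4.14e-05) from double-negative in the CD4+ subsets without and with Tim-4.

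Genes induced by TGF-beta, as Klf10 is, were mostly higher in macrophages. Against monocytes, 6 of 8 were higher in each subset, such as Pmepa1, with log2 differences of 9.42 to 9.96, and 2 were lower (Tgfbi and Id1), while Klf10 itself was lower. Over all genes, 37.3 to 39.5% were called higher and 28.1 to 31.3% lower in these comparisons. Between single-positive and double-negative macrophages only Id3 was called (-1.64, SE 0.20, edgeR adjusted p = 4.03e-05). Between double-positive and double-negative macrophages Id3 (-2.06), Skil (-0.36), Ski (-0.32), and Tgfbi (-0.27) were lower and Pmepa1 (0.54) was higher. Over all genes, 10.1% were called in the first of these comparisons and 23.1% in the second.

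Genes induced by glucocorticoids, as Klf9 is, did not move as a group. Against monocytes, Per1, Sgk1, and Dusp1 were higher in each subset, Zbtb16 was lower in each, and Tsc22d3 was not called in any. Fkbp5 was called lower in both CD4+ subsets, with a log2 difference of -0.78 (SE 0.27, edgeR adjusted p = 0.0161) in single-positive macrophages. Of all genes, 37.3 to 39.5% were called higher and 28.1 to 31.3% lower in these comparisons. Between subsets, Zbtb16 fell by 2.37 on the log2 scale (SE 0.34, edgeR adjusted p = 7e-05) from double-negative to double-positive macrophages and by 1.47 (SE 0.33, edgeR adjusted p = 0.0179) from single-positive to double-positive macrophages. Fkbp5 fell by 0.73 (SE 0.25, edgeR adjusted p = 0.0454) from double-negative to double-positive macrophages. Sgk1 was higher by 0.54 in single-positive and by 0.64 in double-positive than in double-negative macrophages. Of all genes, 10.1% and 23.1% were called in single-positive and double-positive against double-negative macrophages, and 3.41% between the CD4+ subsets.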

How the data were processed

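Levels of 9 Kruppel-like factor mRNAs were measured by stranded paired-end RNA sequencing in 15 libraries of sorted cells, grouped by their titles. Members and gene lists were chosen with earlier results of these data known. The authors trimmed reads (Trimmomatic 0.36), aligned them to GRCm38.p4 (STAR 2.4.2), counted unique reads per gene against GENCODE M11 (HTSeq 0.6.1p1), and deposited the raw counts. The authors also deposited a signal, the counts divided by 1 size factor per library, which was used only to check this relation. Symbols were matched for 19421 of 19456 genes.

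Genes were filtered by filterByExpr, scaled by TMM, and fitted in a single quasi-likelihood model over all 15 libraries (R 4.3.3, edgeR 4.0.16, limma 3.58.1), giving 6 pairwise comparisons with Benjamini-Hochberg adjustment and a threshold of 0.05. Intervals are the log2 difference with its SE at 95%. CPM used TMM library sizes, and log2 CPM a prior count of 2. RPKM used merged exon lengths of the GENCODE M21 annotation. Libraries were checked for duplicates and none was found. Poisson intervals cover counting error only, since reads carry no molecular identifiers. P-values measure the spread between sorts of pooled mice.

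All 9 genes were named in every comparison. Of the other lists, genes called between macrophage subsets were named, and for likeness the 3 genes with the highest Pearson r among those with a mean of at least 1 CPM. Genes named beyond this rule from the other lists were chosen after their values were seen. The analysis was tested on simulated data. The alternatives were DESeq2 1.42.0, RLE scaling, other filters, only the populations compared, replicate blocks, thinned counts, and leaving out each library. The values of 2 listed genes are not reported here. Figures were drawn with matplotlib 3.10.9.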

Additional observations from a re-analysis of the deposited data

Results flagged for a closer look

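Values of 4 genes, all from single-positive replicate 3, stood apart from the other 3 libraries of their subset by more than Dixon's 95% limit for 4 samples. Klf2 was at 1121 CPM there, against 486 CPM in the next library. Klf6 was at 2081 CPM against 1731, Klf3 at 235 CPM against 207, and Klf9 at 12.9 CPM against 10.1. They were 4 of the 27 groups of 4 libraries examined. As all 4 came from the same library they are not separate events, and the count cannot be set against chance. The same library had the highest immediate early sum of its subset, at 53090 CPM against 36755 to 41387 in the other 3, and its part in these values was not tested.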

How the results depend on the processing

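Every member called in the reported fit kept its direction in all 23 alternatives that tested it. The counts here include Klf8, whose calls describe the libraries that chose it except against monocytes in double-negative macrophages. Against monocytes, 7 members were called in double-negative and single-positive macrophages in every alternative, and 6 to 8 in double-positive macrophages. In single-positive against double-negative macrophages the count of 1 became 2, with Klf8, in DESeq2 and among genes averaging 1 CPM or more, and ran from 1 to 2 when each library was left out, with Klf8 added without double-negative replicate 2, single-positive replicate 1, or double-positive replicate 1. In double-positive against double-negative macrophages the count of 4 ran from 1 to 4 on leaving out libraries. In double-positive against single-positive macrophages it became 0 with only these populations fitted, where Klf8 fell under the filter. Differences that turned in sign had not been called. Klf9 in single-positive against double-negative macrophages became 0.0147 with the replicate block of the sample descriptions and 0.0219 with thinned counts. Klf7 in double-positive against double-negative macrophages became 0.0074 in DESeq2 and with RLE scaling and 0.0120 when genes needed a mean of at least 1 CPM. The cause was not tested.

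On leaving out each library, Klf9 ran from -0.31 to 0.44, -0.32 to 0.43, and -0.65 to 0.11 against monocytes in double-negative, single-positive, and double-positive macrophages, and Klf2 from -0.20 to 0.38 in single-positive macrophages. In single-positive against double-negative, Klf2 ran from -0.59 to 0.12, Klf3 from -0.0258 to 0.0823, and Klf9 from -0.12 to 0.0677. In double-positive against double-negative, Klf2 ran from -0.0714 to 0.35, Klf3 from -0.24 to 0.0374, and Klf7 from -0.12 to 0.10. In double-positive against single-positive, Klf3 ran from -0.27 to 0.0085.

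Replicate numbers in the titles and in the sample descriptions differ for single-positive macrophages, and in no comparison did every same-numbered pair correlate above 0.1, so the numbers were not used as pairs. Which libraries came from the same sort is not given in the sources used here, and differently numbered libraries correlated at up to 0.24. With the replicate block by the description numbers, Klf4 in double-positive macrophages against monocytes (0.42, edgeR adjusted p = 0.0542) and Klf6 in double-positive against double-negative macrophages (-0.45, edgeR adjusted p = 0.0553) missed the threshold. The block by the title numbers changed no call of a member. Depth limits Klf8 in double-positive macrophages, with 1 to 4 reads per library.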
